A study of Mus musculus with 6 samples.

Results

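The axon guidance ligands and receptors described here are 59 genes, taken by gene symbol from 11500 genes with usable signal on 6 mouse brain microarrays. They are the genes whose symbol starts with Sema, Plxn, Epha, Ephb, Efna, Efnb, Robo, Unc5 or Ntng, together with Slit1 to Slit3, Ntn1, Ntn4, Nrp1, Nrp2 and Dcc. For each gene the brightest probe set on average was used, with _x_at probe sets taken only where no other kind named the gene, and the gene was kept if that mean was 89 or more. The platform names 71 such genes, and 12 lay below the minimum. The prefix Unc5 also took in Unc50, a membrane protein known in worms for the trafficking of acetylcholine receptors, which is no netrin receptor.

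Axon guidance molecules steer growing axons by attraction and repulsion. Netrins act through Dcc and the Unc5 receptors, Slits repel through Robos, semaphorins signal through plexins and neuropilins, and ephrins signal through Eph receptor kinases. In the mature cortex and cerebellum many of them remain expressed, at synapses, in glia and in blood vessels. Reelin, the secreted product of Reln, directs where migrating neurons settle. Its receptors are Vldlr and Apoer2 (gene symbol Lrp8), and Dab1 relays the signal inside the cell.

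Each array measured the frontal cortex, 1 lobe per mouse, at 21 days of age on a mixed C57BL/6 and 129 background. The reeler models were a Dab1 knockout (Dab1 KO), a Reln knockout (Reln KO) and a knockout of both apoER2 and VLDLR (Double KO). The arrays they were set against were an apoER2 knockout (Apoer2 KO), a Vldlr knockout (Vldlr KO) and a wild type (WT). The Double KO, Apoer2 KO, Vldlr KO and WT mice came from 1 cross of double heterozygotes, and the Dab1 KO and Reln KO mice from crosses of their own, with no wild-type littermate among these arrays. The labels used here do not describe the alleles beyond this.

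There was 1 array per genotype, so a p-value below treats 3 genotypes of a class as replicates and measures only the spread between these arrays. Reln signal was 79.9 on the Reln KO array, against 1498 to 1880 on the others. Lrp8 read 13.7 on the Double KO and 4.2 on the Apoer2 KO array, against 342.4 to 379.8 elsewhere. Vldlr read 185.6 on the Double KO and 187.3 on the Vldlr KO array, against 357.6 to 551.6 elsewhere. Dab1 read 478.5 on the Dab1 KO array, against 516.4 to 626.0 on the others, a small gap. The Apoer2 KO array stood apart. Xist, an RNA of the female inactive X chromosome, read 124.9 there and 3368 to 4006 on the other 5 arrays. Eif2s3y, a gene of the Y chromosome, read 367.5 there and 0.6 to 7.7 on the other 5. Every mouse is labelled male, so the label goes against these signals on the other 5 arrays and not on the Apoer2 KO array. Gh, growth hormone, read 3705 on the Apoer2 KO array and 13.1 to 32.4 elsewhere. Markers of cortical excitatory neurons were present on every array. Slc17a7, a vesicular glutamate transporter, read 2825 to 4730, and Camk2a read 2636 to 4939. Neurod6 (433.6 to 687.6), Tbr1 (330.4 to 403.5) and Emx1 (128.5 to 187.1) were dimmer. Cerebellar granule cell genes were present too, and so were Purkinje cell genes (Pcp2 read 1829 to 2817). Values are signals on a linear scale, and bacterial control probe sets, which match no mouse transcript, reached at most 28.4 to 39.6 per array.

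The lowest members of the class comparison were in the netrin group, and the promoters of 2 of them, Ntn4 and Unc5b, are shown because these are the lowest ligand and the lowest receptor. Each runs from 250 bases before to 50 after the gene's start, 5′ to 3′, from RefSeq on GRCm38.p6. Capitals mark matches to the GC box, GGGCGG on either strand, a motif bound by Sp1. The Ntn4 window lies at chr10:93640799-93641098 on the plus strand and the Unc5b window at chr10:60831532-60831831 on the minus strand.
Ntn4: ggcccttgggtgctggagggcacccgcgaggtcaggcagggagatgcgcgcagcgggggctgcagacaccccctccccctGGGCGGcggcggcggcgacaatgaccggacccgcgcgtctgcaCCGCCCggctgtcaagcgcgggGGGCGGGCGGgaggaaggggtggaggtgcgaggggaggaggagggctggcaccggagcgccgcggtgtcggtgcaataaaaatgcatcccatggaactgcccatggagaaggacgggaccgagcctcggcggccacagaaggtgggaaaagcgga
Unc5b: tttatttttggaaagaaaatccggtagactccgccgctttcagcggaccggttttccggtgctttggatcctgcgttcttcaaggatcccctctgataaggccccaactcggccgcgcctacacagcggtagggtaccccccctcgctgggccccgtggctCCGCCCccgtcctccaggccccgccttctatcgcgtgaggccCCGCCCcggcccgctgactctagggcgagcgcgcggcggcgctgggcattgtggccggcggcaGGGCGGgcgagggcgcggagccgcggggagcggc
The Ntn4 window held 4 GC boxes, a pair of which overlap, and the Unc5b window held 3. Neither held TATAAA on either strand. The GC box stood in 35.7% of all 32851 promoter windows, in 61.4% of the 12119 windows of kept genes and in 74.6% of the 63 windows that matched 50 of the members. TATAAA stood in 13.6%, 7.45% and 3.17% of the same sets. A match describes these letters and does not show that a factor binds there.

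The main question was whether guidance genes differed between the reeler models and the comparison arrays. Lowest in the reeler models were the netrins Ntn4 and Ntn1 and the netrin receptor Unc5b, at 1.56-fold to 1.64-fold below the comparison arrays. Highest were the semaphorin Sema4a (1.59-fold) and the ephrin Efna3 (1.38-fold), both with their highest signal on the Reln KO array. Their log2 differences of 0.67 and 0.46 became 0.37 and 0.22 without that array. None of the 59 members passed an adjusted p of 0.05 in limma, where 0.13% of all 11500 genes did. Without the Apoer2 KO array, again 0 members passed. At an unadjusted limma p below 0.05 there were 11 members, 7 higher and 4 lower in the reeler models, or 18.6% of members against 11% of all genes (5.23% higher and 5.81% lower). For 12 members the 3 reeler arrays lay on 1 side of the 3 comparison arrays, 6 higher and 6 lower, which is 20.3% of members against 17.7% of all genes (9.03% higher and 8.67% lower). That share is close to the background and says nothing particular to guidance genes. The median log2 difference was 0.01 over the members and 0.01 over all genes, and 31 members lay above 0 and 28 below. Most differences were small: 45 members, or 76.3%, lay between -0.25 and 0.25, as did 81.5% of all genes. Differences are on the log2(signal + 28.1) scale, reeler models minus comparison arrays, and understate those of dim genes.

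**Figure D1:**
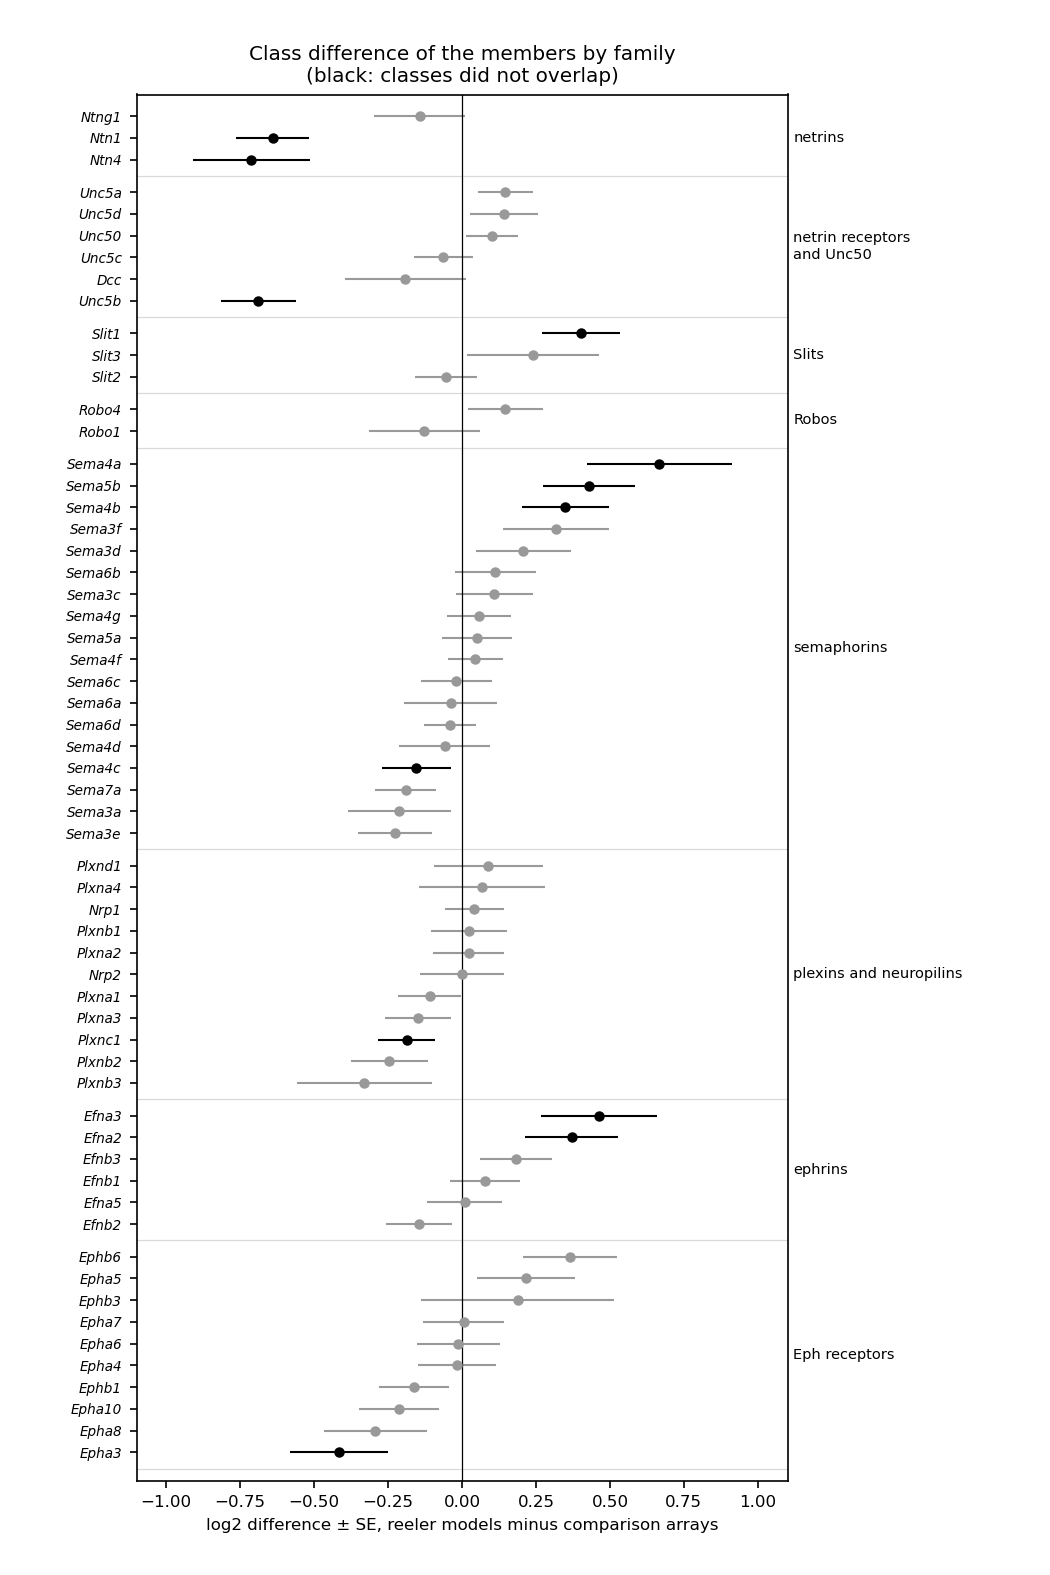
Log2 difference with its SE for each of the 59 members, reeler models minus comparison arrays, grouped by family, where black points are the 12 members whose classes did not overlap. Ntn4 (-0.71), Unc5b (-0.69) and Ntn1 (-0.64) lie lowest and Sema4a (0.67) lies highest.

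Netrins came lowest of the families. Ntn1 encodes netrin-1, the secreted ligand of Dcc and the Unc5 receptors. Its signal was 132.1, 131.9 and 130.4 on the Dab1 KO, Reln KO and Double KO arrays, against 192.9, 236.5 and 234.3 on the Apoer2 KO, Vldlr KO and WT arrays. The reeler models were nearly identical, at 131.5 ± 0.929 (SD, n = 3), and lay below all comparison arrays, at 221.2 ± 24.6 (SD, n = 3). The log2 difference was -0.64 (SE 0.12, 1.56-fold lower), with an unadjusted limma p of 0.000632 and an adjusted p of 0.139. A second, dim Ntn1 probe set with a mean of 63.4 overlapped between the classes (log2 difference -0.14).

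Ntn4 encodes netrin-4, a laminin-like netrin of basement membranes. It read 140.1, 88.8 and 125.7 on the Dab1 KO, Reln KO and Double KO arrays, against 234.1, 156.6 and 246.6 on the Apoer2 KO, Vldlr KO and WT arrays. The classes did not overlap, but the Vldlr KO array lay near the Dab1 KO array. The log2 difference was -0.71 (SE 0.20, 1.64-fold lower, adjusted p = 0.292), and a dim second probe set with a mean of 52.2 had -0.77 with overlap. The remaining netrin, Ntng1, encodes a membrane-anchored netrin-G that binds a synaptic partner and not Dcc. Its mean signal was 478.6 and its log2 difference -0.14, with overlap.

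Of the netrin receptors, Unc5b was the only one whose classes did not overlap on the probe set used. Unc5 proteins mediate repulsion by netrin-1, and Unc5b is also known from endothelial cells. Unc5b signal was 287.6, 279.1 and 323.0 on the Dab1 KO, Reln KO and Double KO arrays, against 448.0, 458.4 and 587.3 on the Apoer2 KO, Vldlr KO and WT arrays. Every reeler array was below every comparison array, at 296.6 ± 23.3 against 497.9 ± 77.6 (SD, n = 3 each). The log2 difference was -0.69 (SE 0.13, 1.61-fold lower), with an unadjusted limma p of 0.00045, the lowest of the members, and an adjusted p of 0.126. A second Unc5b probe set separated the classes in the same direction, with 96.4, 83.1 and 92.5 on the Dab1 KO, Reln KO and Double KO arrays, against 145.7, 138.1 and 160.0 on the Apoer2 KO, Vldlr KO and WT arrays (log2 difference -0.57). Without the Apoer2 KO array, whose sex-linked genes differ from the rest, the log2 difference was -0.76 for Unc5b, -0.72 for Ntn1, -0.64 for Ntn4 and 0.52 for Sema4a.

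On the probe sets used, the other netrin receptors overlapped between the classes. Dcc, the receptor for attraction, ran from 187.9 to 308.9 in the reeler models and from 212.9 to 342.5 on the comparison arrays (log2 difference -0.19). Unc5a (0.15), Unc5d (0.14) and Unc5c (-0.06) had small log2 differences at mean signals of 756.8, 482.5 and 529.5. A second, dimmer Unc5c probe set did separate the classes, with 174.2, 151.4 and 175.0 on the Dab1 KO, Reln KO and Double KO arrays, against 237.4, 242.2 and 220.8 on the Apoer2 KO, Vldlr KO and WT arrays (log2 difference -0.43). The probe sets of Unc5c thus differ in size of difference but not in sign. Unc50, brightest of those the prefix took in, had a mean signal of 1074 and a log2 difference of 0.10.

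**Figure D2:**
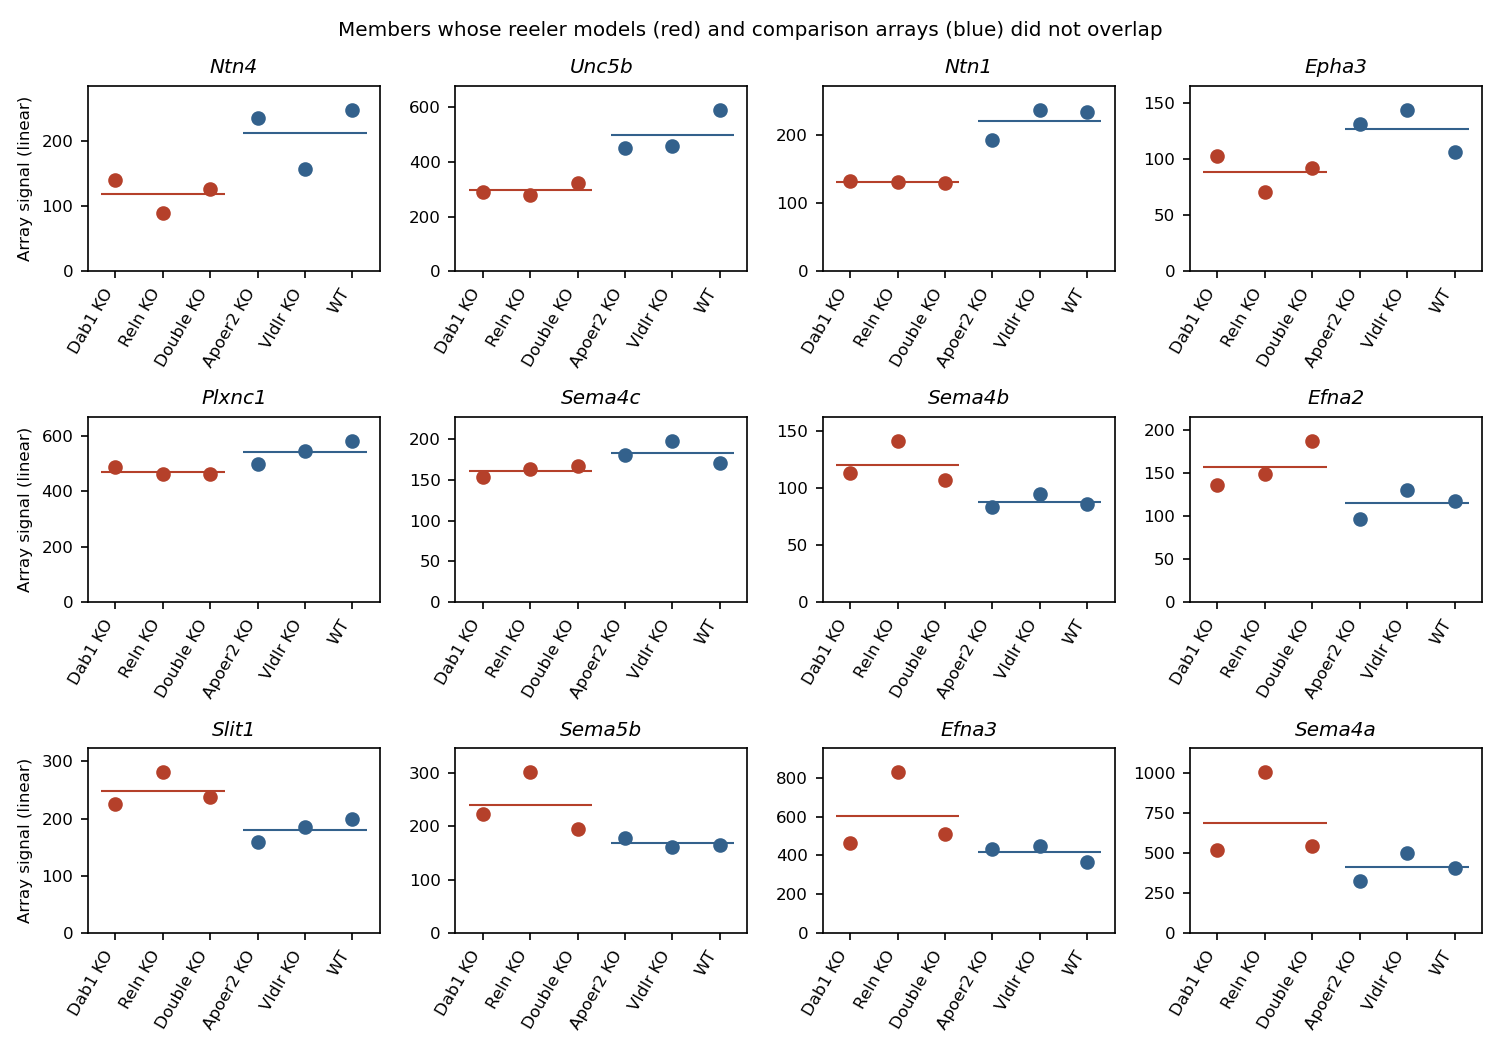
Signal on each array, on a linear axis from 0, for the 12 members whose reeler models (red) and comparison arrays (blue) did not overlap, with a line at each class mean. Ntn1 reads 130.4 to 132.1 on the reeler arrays, and Sema4a reads 1004 on the Reln KO array, far above its other values.

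Marker sums of granule cells and meninges were also lower in the reeler models, and those of Purkinje cells and endothelium overlapped between the classes. Of 15 cerebellar granule cell markers, 12 were kept, all 12 were lower in the reeler models without overlap and 8 passed an adjusted p of 0.05. Their summed signal was 4247 to 5652 in the reeler models and 12936 to 16117 on the comparison arrays. None was at 0, and the lowest reading was 8.4 for Fat2 on the Double KO array. This list was chosen with earlier results known. The 6 kept Purkinje cell markers of 8 had overlapping sums of 7802 to 10544 in the reeler models and 10097 to 10405 on the comparison arrays. All 6 lay below 0, with a median log2 difference of -0.20, against -1.52 for the granule cell markers. Of the 6, 2 were lower without overlap and 0 passed. The 4 kept meningeal genes of 5 summed to 1082 to 1282 in the reeler models and 1463 to 1529 on the comparison arrays, with none at 0 and 0 passing. The 6 endothelial markers, which bear on Unc5b and Ntn4 in vessels, had overlapping sums of 2065 to 2176 in the reeler models and 2058 to 2149 on the comparison arrays, with none at 0. Among them only Tek, an angiopoietin receptor, was lower without overlap, at 101.2 to 143.1 in the reeler models and 148.4 to 206.2 on the comparison arrays (log2 difference -0.41, adjusted p = 0.426 in limma). All the others overlapped, with log2 differences of 0.15 for Cldn5, 0.04 for Kdr, 0.04 for Pecam1, -0.04 for Slco1a4 and -0.12 for Flt1. The part of granule, Purkinje, meningeal and endothelial cells in the netrin values was not tested. In such bulk samples fewer cells of a type cannot be told apart from less RNA per cell.

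Slits and Robos, a ligand and receptor system for repulsion at the midline, gave 5 members. Slit1 was 225.8, 281.3 and 237.8 on the Dab1 KO, Reln KO and Double KO arrays, against 158.7, 185.1 and 199.4 on the Apoer2 KO, Vldlr KO and WT arrays. All reeler arrays were higher (log2 difference 0.40, SE 0.13, 1.32-fold, adjusted p = 0.355). A second Slit1 probe set with a mean of 116.5 had 0.21, with overlap. Slit2, the brightest Slit at a mean of 330.3, had a log2 difference of -0.05, and Slit3, near the signal minimum at 99.9, had 0.24. Robo1, a neuronal receptor, had -0.13 at a mean of 264.2, and Robo4, known from endothelium, had 0.15 at 160.8. Both overlapped between the classes.

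Semaphorins were the most numerous ligands, with 18 members, of which 10 lay above 0 and 8 below. The brightest was Sema6d, a transmembrane semaphorin, at 1319 and a log2 difference of -0.04. Sema4a, a transmembrane class 4 semaphorin, had the highest difference of all members. It read 520.4, 1004 and 544.4 on the Dab1 KO, Reln KO and Double KO arrays, against 324.0, 500.4 and 407.4 on the Apoer2 KO, Vldlr KO and WT arrays. The Reln KO array was far above the rest, and the Dab1 KO array only just above the Vldlr KO array. The log2 difference was 0.67 (SE 0.24, 1.59-fold, adjusted p = 0.404), and without the Reln KO array it was 0.37. On a second Sema4a probe set the Reln KO array was again highest, at 817.7, against 384.2 on the WT array (class difference 0.48, with overlap).

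Sema5b, a transmembrane semaphorin with thrombospondin repeats, had a similar order. Its signal was 223.0, 301.5 and 195.3 on the Dab1 KO, Reln KO and Double KO arrays, against 178.3, 160.9 and 165.8 on the Apoer2 KO, Vldlr KO and WT arrays. The classes were separate (log2 difference 0.43, SE 0.16, adjusted p = 0.396), and the value was 0.27 without the Reln KO array. Sema4b was dimmer, at 107.1 to 141.0 in the reeler models and 83.6 to 94.4 on the comparison arrays (log2 difference 0.35). On the probe sets used, Sema4c, a ligand of Plxnb2, was the only semaphorin lower without overlap. It read 153.7 to 166.0 in the reeler models and 170.1 to 196.9 on the comparison arrays (log2 difference -0.15). Sema3e, a secreted semaphorin that binds Plxnd1, was lowest of the family at -0.23, with overlap.

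Sema3f, a secreted ligand of Nrp2, had no settled direction. The probe set used had a mean of 97.0, just inside the minimum, and a log2 difference of 0.32. A brighter probe set ending in _x_at, with a mean of 338.9, gave -0.36. Both overlapped between the classes.

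Plexins and neuropilins, the semaphorin receptors, gave 11 members with log2 differences from -0.33 to 0.09 and a median of 0.0003. Plxnc1, the receptor of Sema7a, was 487.7, 461.2 and 463.7 on the Dab1 KO, Reln KO and Double KO arrays, against 497.2, 544.8 and 581.0 on the Apoer2 KO, Vldlr KO and WT arrays. It was lower without overlap, but by little (log2 difference -0.19, SE 0.10, adjusted p = 0.510). Its 4 further probe sets past the minimum were all lower too, from -0.33 to -0.04. Sema7a itself, a membrane-anchored semaphorin, had -0.19 at a mean of 1096, with overlap. Plxnb1, the brightest plexin at 586.4 and a receptor of Sema4d, had 0.02. Plxnd1 had 0.09 and ran from 229.8 on the Reln KO to 389.8 on the Dab1 KO array, a spread wider within the reeler models than between the classes. The neuropilins, co-receptors for secreted semaphorins, had means of 514.9 (Nrp1) and 251.7 (Nrp2) with differences of 0.04 and 0.0003.

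Plxnb3, a plexin of the oligodendrocyte lineage, was lowest of its family. It read 309.8, 149.5 and 246.9 on the Dab1 KO, Reln KO and Double KO arrays, against 259.0, 267.7 and 358.2 on the Apoer2 KO, Vldlr KO and WT arrays. The low value was that of the Reln KO array, and the classes overlapped (log2 difference -0.33, adjusted p = 0.604). Without the Reln KO array the difference was -0.07, and without the Dab1 KO array -0.53. On its second probe set the Reln KO array was lowest as well, at 125.7, and there all reeler arrays were below all comparison arrays (log2 difference -0.49). The 7 kept oligodendrocyte markers of 8 summed to 26558, 27733 and 32511 on the Dab1 KO, Reln KO and Double KO arrays. On the Apoer2 KO, Vldlr KO and WT arrays they summed to 29746, 24948 and 30615. The 4 precursor markers had their lowest sum on the Reln KO array, at 3555, against 3945 to 4480 on the others. Of the 4, Olig1 was lowest on the Reln KO array, at 2224.5, against 2538.7 to 3085.3 on the others. Pdgfra was lowest on the Double KO array (421.4), and Cspg4 (122.7) and Olig2 (475.2) on the Apoer2 KO array. No marker of either list was at 0, and the part of oligodendrocytes or precursor cells in the Plxnb3 value was not tested.

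Ephrins, the membrane-bound ligands of Eph receptors, gave 6 members, 5 above 0. Efna3, anchored to the membrane by lipid, was 465.7, 827.4 and 507.8 on the Dab1 KO, Reln KO and Double KO arrays, against 431.7, 447.2 and 367.0 on the Apoer2 KO, Vldlr KO and WT arrays. The classes did not overlap, but the Dab1 KO array was close to the Vldlr KO array. The log2 difference was 0.46 (SE 0.20, 1.38-fold, adjusted p = 0.443), and 0.22 without the Reln KO array. A second Efna3 probe set gave the same order of classes without overlap, with 298.1, 574.3 and 355.2 on the Dab1 KO, Reln KO and Double KO arrays, against 268.6, 281.5 and 257.4 on the Apoer2 KO, Vldlr KO and WT arrays.

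Efna2, another lipid-anchored ephrin, was 135.7 to 186.8 in the reeler models and 96.6 to 130.4 on the comparison arrays (log2 difference 0.37, adjusted p = 0.443). Efnb3, a transmembrane ephrin known as a midline barrier to corticospinal axons and the brightest ephrin here at 849.9, had 0.18. Efnb2, also transmembrane, was lowest at -0.14. Efnb3 and Efnb2 both overlapped between the classes.

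Eph receptors gave 10 members, 4 above 0 and 6 below. Epha4, a receptor that binds both ephrin classes and the brightest at a mean of 992.8, had a log2 difference of -0.02 and overlapped. Epha3, a receptor for ephrin-A ligands, was the only one with separate classes, at 102.2, 70.8 and 91.7 on the Dab1 KO, Reln KO and Double KO arrays, against 131.4, 143.3 and 106.0 on the Apoer2 KO, Vldlr KO and WT arrays. Its Dab1 KO and WT values lay close together (log2 difference -0.42, SE 0.17, adjusted p = 0.429). Dim Epha3 probe sets with means of 20.5, 42.9 and 61.5, all below the minimum, gave -0.52, 0.11 and -0.99. Only the last of these separated the classes. Ephb6, an Eph protein without kinase activity, was highest at 0.36 (SE 0.16, adjusted p = 0.449), or 0.22 without the Reln KO array, with 422.1, 648.9 and 535.3 on the Dab1 KO, Reln KO and Double KO arrays, against 351.2, 448.5 and 416.8 on the Apoer2 KO, Vldlr KO and WT arrays. Here the Vldlr KO array exceeded the Dab1 KO array, so the classes overlapped.

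Further probe sets measured 35 of the members a second time on the same arrays. Of 53 further probe sets past the signal minimum, 35 had the direction of the one used and 18 the opposite. Among members whose classes did not overlap, all 10 further probe sets, from 7 genes, had the same direction, and 3 of them again separated the classes. Unc5b and Efna3 were described above, and the third belonged to Plxnc1. Among members whose classes did overlap, 6 of 43 further probe sets, from 28 genes, separated the classes. Of these, 4 had the direction of the probe set used, for Unc5c, Plxnb3, Plxna3 (-0.38) and Efnb1 (0.32). The other 2 had the opposite direction, for Plxna2 (-0.35, against 0.02 on the probe set used) and Sema4f (-0.31, against 0.05). On the probe sets used, the classes did not overlap for 17.7% of all genes. No such share was taken over the further probe sets of all genes, so these counts say nothing particular to the members.

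**Figure D3:**
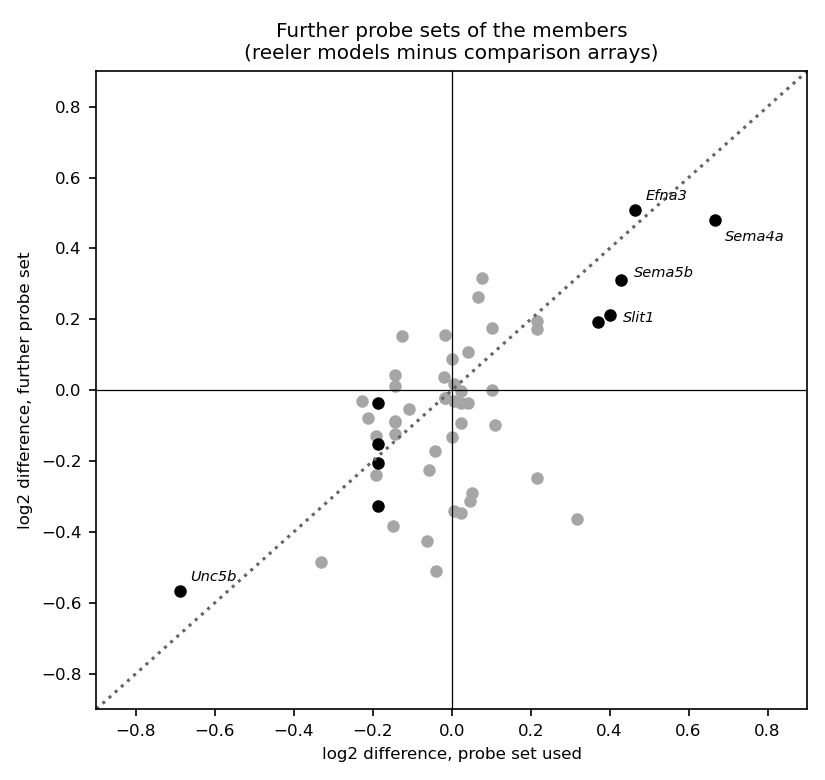
Log2 difference, reeler models minus comparison arrays, of 53 further probe sets (vertical) against that of the probe set used for the gene (horizontal), with black points for members whose classes did not overlap and a dotted line at equality. The black points lie in the quadrants of equal sign, and the grey points, most of them near 0, lie in all 4.

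Each mutant array was then set against the WT array, with no test and all 5 sharing that array. On the Reln KO array 5 of 59 members, or 8.47%, differed by 2-fold or more, against 2.49% of all genes (1.16% higher and 1.33% lower). Sema4a (log2 difference 1.24) and Efna3 (1.11) were higher there, and Ntn4 (-1.23), Plxnb3 (-1.12) and Unc5b (-1.002) were lower. With the median of all values as pseudocount, 2 members remained past 2-fold on the Reln KO array. On the Vldlr KO array 1 member did so, against 0.722% of all genes. This was Ephb3, an Eph receptor for ephrin-B ligands, at 1.05. It read 78.4, 163.8 and 100.5 on the Dab1 KO, Reln KO and Double KO arrays, against 63.7, 172.2 and 68.5 on the Apoer2 KO, Vldlr KO and WT arrays, so it was high on the Reln KO and Vldlr KO arrays and followed neither class. None did so on the Dab1 KO, Double KO and Apoer2 KO arrays, where 1.03%, 0.93% and 0.391% of all genes did.

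Ntn1 and Unc5b had similar values on the 3 reeler arrays, and Ntn4 varied more. Ntn1 differed from WT by -0.71, -0.71 and -0.73 on the log2 scale on the Dab1 KO, Reln KO and Double KO arrays, and by -0.25 and 0.01 on the Apoer2 KO and Vldlr KO arrays. For Unc5b the values were -0.96, -1.002 and -0.81 on the Dab1 KO, Reln KO and Double KO arrays, and -0.37 and -0.34 on the Apoer2 KO and Vldlr KO arrays. For Ntn4 they were -0.71, -1.23 and -0.84 on the Dab1 KO, Reln KO and Double KO arrays, and -0.07 and -0.57 on the Apoer2 KO and Vldlr KO arrays. Ntng1 and Dcc were on both sides of WT among the reeler models, at 0.27, -0.35 and -0.01 for Ntng1 and 0.22, -0.43 and -0.28 for Dcc. Within the receptor cross, the Double KO array differed from the mean of the 2 single knockouts by -0.61 for Ntn1, -0.52 for Ntn4 and -0.45 for Unc5b, and by 0.61 for Efna2. By contrast, the Reln KO array exceeded the mean of the Dab1 KO and Double KO arrays by 0.88 for Sema4a and 0.73 for Efna3.

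**Figure D4:**
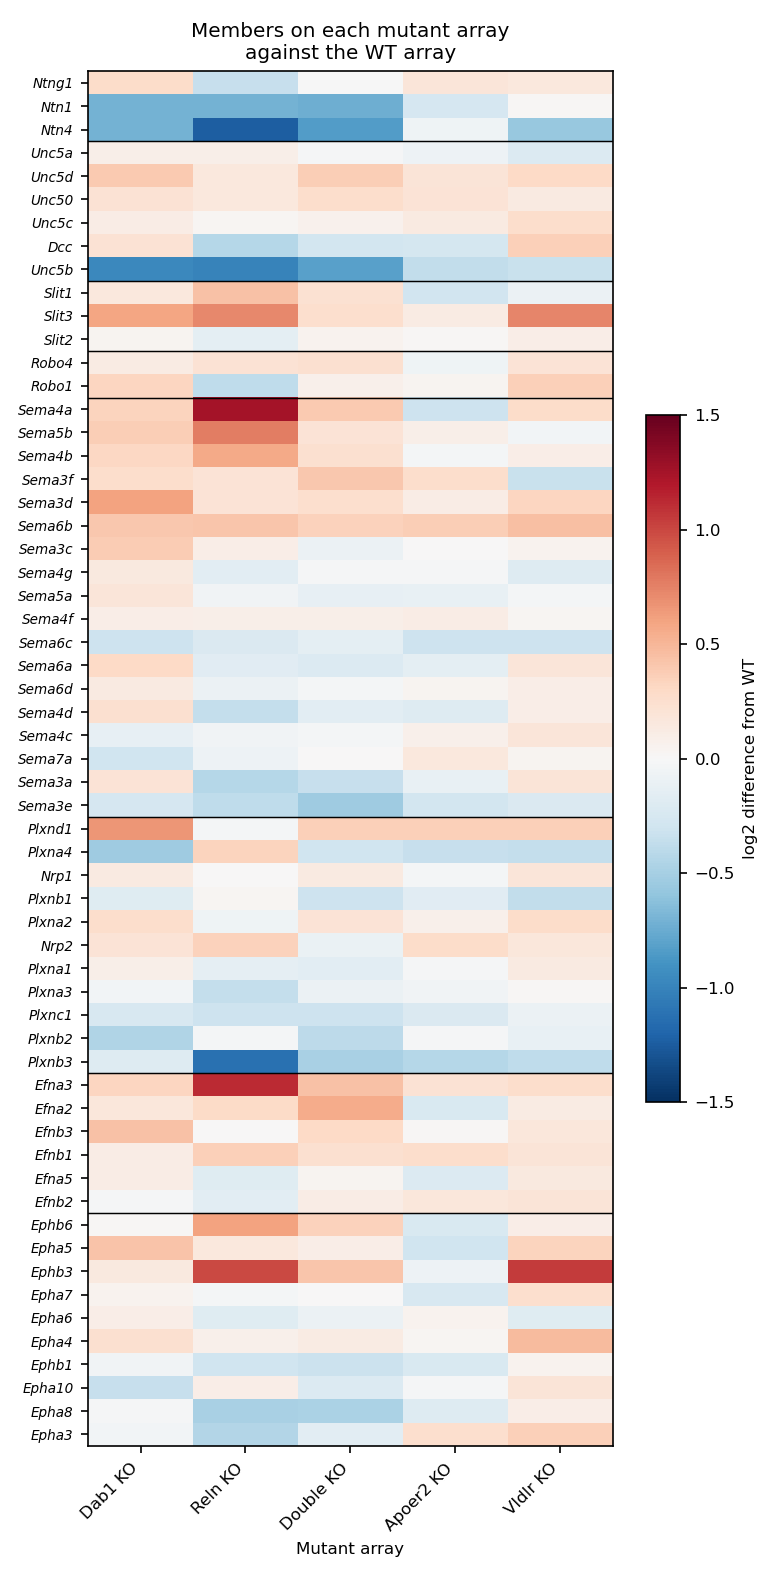
Log2 difference of each member from the WT array (colour) on the 5 mutant arrays (columns), with members in rows by family. Ntn1, Ntn4 and Unc5b are blue on the Dab1 KO, Reln KO and Double KO arrays, and Sema4a and Efna3 are deepest red on the Reln KO array.

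Genes that act with or below the guidance receptors were given by a list of 60, of which 56 were named alone by a probe set and 53 were kept. Only Chn2 passed an adjusted p of 0.05. Chn2 encodes beta-chimaerin, a Rac inhibitor known from semaphorin-driven pruning, and it fell in the reeler models. It read 616.1, 681.7 and 695.9 on the Dab1 KO, Reln KO and Double KO arrays, against 1478, 1171 and 1472 on the Apoer2 KO, Vldlr KO and WT arrays. The groups were widely separate (log2 difference -1.01, SE 0.11, 2.02-fold lower, adjusted p = 0.00999 in limma). The granule cell sums above were also lower in the reeler models, and the part of granule cells in the Chn2 result was not tested. The call was lost without the Double KO, Apoer2 KO or WT array, with WT alone as the comparison, or with a covariate for the cross.

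The other effectors did not pass. Classes did not overlap for 12 of the 53, 6 higher and 6 lower, or 22.6% against 17.7% of all genes, and the median log2 difference was -0.03. The actin-binding genes Ablim3 (-0.52, adjusted p = 0.224) and Ablim1 (-0.42, adjusted p = 0.184), kin of a worm gene needed for netrin responses, came next lowest. Highest were the heparan sulphate proteoglycan gene Gpc1 (0.50), the kinase gene Src (0.30) and Flrt1 (0.28), which encodes a relative of Unc5 ligands. Gpc1 was 640.5 on the Reln KO array, against 236.0 to 311.0 on the others.

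**Figure D5:**
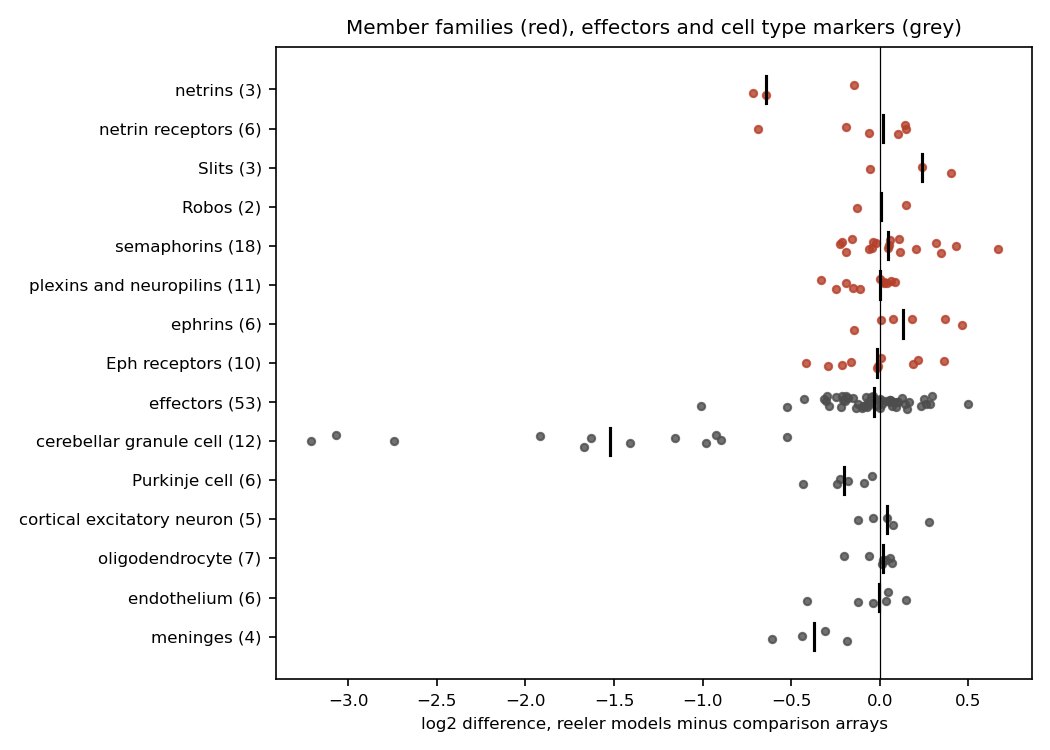
Log2 difference of each gene, reeler models minus comparison arrays, for the member families (red) and for effectors and selected cell type markers (grey). A black line marks each median, with the number of genes in brackets, and Unc50 is counted among the netrin receptors. The marker lists drawn are granule cell, Purkinje cell, cortical excitatory neuron, oligodendrocyte, endothelium and meninges, and the other lists are not drawn. The granule cell markers lie from -3.21 to -0.52, a range that Ntn4, Unc5b and Ntn1 alone of the members enter.

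Across all 6 arrays, 7 members, or 11.9%, spanned at least 2-fold between their lowest and highest signal, against 9.11% of all genes. Sema4a spanned 3.10-fold, Ntn4 2.78-fold and Ephb3 2.70-fold. The lowest signal of a member was most often on the Reln KO array (18 members, or 30.5%, against 25.3% of all genes) and the highest on the Vldlr KO array (21 members, or 35.6%, against 13.6% of all genes). No test was made of these shares, which rest on single arrays.

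The 12 genes below the minimum could not be compared. They were Efna1, Efna4, Epha1, Epha2, Ephb4, Ntng2, Robo2, Robo3, Sema3b, Sema3g, Unc5cl and the antisense gene Plxna4os1, with mean signals of 12.5 to 87.3. The genes just outside the minimum were Unc5cl (87.3) and Robo3 (83.3), and those just inside were Sema3f (97.0) and Slit3 (99.9).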

How the data were processed

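The authors deposited 1 signal intensity per probe set, on a linear scale, for 45101 probe sets. Per the submitters' processing notes, MAS5 and Affymetrix Expression Console were used; no version or genome build is given in those notes. Gene names came from the platform annotation, which named 1 gene for 34958 probe sets. Each of 18194 genes took its brightest probe set, with those ending in _x_at last, and 11500 with a mean signal of at least 89 were kept. A pseudocount of 28.1, the 25th percentile of all values, was added before taking log2.

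The class comparison (3 reeler models minus 3 comparison arrays) was fitted in limma (version 3.58.1, R 4.3.3) using a trended prior, and p-values were adjusted by Benjamini-Hochberg across the 11500 genes. The procedure was also run on simulated data with independent values and the same spread for every gene. Those data held no cross or sex difference, so they do not test the p-values of these arrays. With 1 array per genotype, differences from WT carry no test. The number of arrays limits the precision.

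The members and lists were chosen with earlier results of these data known. Named genes are members without overlap between classes, the brightest, highest and lowest of each family, those 2-fold from WT, those beside the signal minimum, and the 3 highest and 3 lowest effectors with any that passed. Dcc, Unc5c, Unc5d, Nrp1, Nrp2, Sema7a, Plxna2, Plxna3, Efnb1, Sema4f and Tek were added after their values were seen. Alternatives were 2 other pseudocounts, no filter or a stricter one, quantile normalization, other choices of probe set, no trend, a cross covariate, WT alone and each array left out.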

Additional observations from a re-analysis of the deposited data

How the results depend on the processing

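The count of 0 members past an adjusted p of 0.05 in limma held under all 16 alternatives, beside 11 members at an unadjusted p below 0.05, and the adjusted p ran from 0.120 to 0.840 for Unc5b and from 0.116 to 0.813 for Ntn1. No paired analysis was possible because each genotype had 1 array. The count of all genes past the threshold was 15, and 9 with the cross covariate, 0 with WT alone and 1 to 22 with an array left out (1 without WT). The effector count of 1 became 0 with the cross covariate or WT alone and was 0 to 1 with an array left out. Members without overlap were 12, and 4 of 34 with the filter at 297.7, 34 with WT alone and 16 to 25 with an array left out (19 without Apoer2 KO, 21 without Vldlr KO and 25 without Dab1 KO), where fewer arrays make separation easier. The share of all genes without overlap was not taken under these alternatives. These counts thus have no background and say nothing particular to guidance genes. Without Unc50, a choice made after seeing the data, 12 of 58 were apart. Members 2-fold from WT on the Reln KO array were 5, and 2 with the median pseudocount or 3 with the stricter filter. On the Vldlr KO array they were 1, and 0 with either of these. On the Dab1 KO array they were 0, and 1 with a pseudocount of 1. On the Apoer2 KO array they were 0, and 2 of 71 with no filter. The share of all genes 2-fold from WT was not taken under these alternatives either. These 2-fold counts thus say nothing particular to guidance genes.

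Of 30 named members, 20 kept their sign under every alternative run. Signs that changed, with the cause not tested, were those of Sema3f (-0.25 with the mean of all probe sets and -0.36 with _x_at probe sets), Epha4 (0.0348 with the mean of all probe sets and 0.15 with WT alone), Plxnb1 (-0.13 with the cross covariate and -0.16 with WT alone), Slit2 (0.0114) and Slit3 (-0.0286) with the cross covariate, and Robo1 (0.0057) and Sema6d (0.0085) with WT alone. With an array left out, values ran from -0.10 to 0.13 for Epha4, -0.0494 to 0.55 for Ephb3, -0.29 to 0.0176 for Ntng1, -0.0694 to 0.11 for Plxnb1, -0.0789 to 0.27 for Plxnd1, -0.29 to 0.0693 for Robo1, -0.11 to 0.0048 for Sema6d and -0.0864 to 0.0094 for Slit2. Members near the minimum of 89 lie only a few times above background, which limits what can be read from them.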
